A study of Mus musculus with 6 samples.

Results

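The genes described here encode the signalling chains of the T cell receptor, its coreceptors, and surface proteins carried by T cells. They are the receptor chains Cd3d, Cd3e, Cd3g and Cd247, the coreceptors Cd4, Cd8a and Cd8b1, and the surface proteins Thy1, Cd2 and Cd5. They were chosen by name, and all probe sets that the platform annotation gives to 1 of these 10 symbols were taken. This gave 18 of the 45101 probe sets on the array, and 10 of the 18194 genes that it names. RNA of whole spleen was measured in 6 Balb/c mice aged 6 to 8 weeks, of which 3 were labelled as untreated (control). The other 3 were dosed into the stomach with PFOS (perfluorooctane sulfonate, a fluorinated surfactant that degrades very slowly) for 3 weeks, at a daily 10 mg per kg. The labels do not say whether control mice were given a vehicle. All mice are labelled female, but every array carried signal of the Y-linked gene Eif2s3y (log2 9.62 to 9.91) beside low Xist (3.71 to 5.86 over its 3 probe sets), which goes against that label.

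The receptor on most T cells binds peptide held by major histocompatibility complex (MHC) proteins through a clonal pair of alpha and beta chains, which have almost no intracellular part. CD3 delta, epsilon and gamma and the zeta chain CD247 carry the signal inward through tyrosine motifs that kinases phosphorylate. CD4 binds MHC class II and marks helper and regulatory T cells, while CD8, mostly a dimer of alpha and beta chains, binds MHC class I and marks cytotoxic T cells. Both coreceptors bring the kinase Lck to the receptor. In the spleen, T cells lie mainly in the sheaths around the small arteries of the white pulp.

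The study asked which spleen transcripts differ after PFOS exposure. Values are RMA log2 levels, in which the arrays have been equalized, so a change is relative to the other transcripts of an array. Array medians lay between 6.15 and 6.18, and over the 13101 tested genes the correlation between arrays was 0.9985 to 0.9991 inside a group and 0.969 to 0.970 across the groups. The labels call the arrays biological replicates but do not say how the mice were housed or handled, and p-values measure only the spread between these samples, which may be technical. A gene counted as called at a limma adjusted p under 0.05, with Benjamini-Hochberg adjustment over all tested genes, and ± after a change is limma's standard error (SE). In RNA of a whole organ, more cells of a type and more RNA per cell cannot be told apart.

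The genes of CD3 gamma, delta and epsilon lie next to each other on mouse chromosome 9 in the order Cd3g, Cd3d, Cd3e, with Cd3g and Cd3d read in opposite directions from neighbouring starts. The start regions of these 3 genes are shown because Cd3d and Cd3g had large rises and Cd3e the smallest of the 10 genes. That of Cd8a is shown because it holds neither of the sequences searched. Each window runs from 250 bases before to 30 after the annotated start, read 5′ to 3′ on the strand of the gene, from the RefSeq table of build GRCm38.p6. Windows were found for 6 of the 10 genes, and Cd4, Cd8b1, Thy1 and Cd2 are not shown. Positions are chr9:44981536-44981815 on the plus strand for Cd3d, chr9:44980402-44980681 on the minus strand for Cd3g, chr9:45009582-45009861 on the minus strand for Cd3e and chr6:71373177-71373456 on the plus strand for Cd8a. Capitals mark CACCTG or CAGGTG, a core bound by E proteins, and GGAAGT or ACTTCC, a core bound by ETS factors.
Cd3d: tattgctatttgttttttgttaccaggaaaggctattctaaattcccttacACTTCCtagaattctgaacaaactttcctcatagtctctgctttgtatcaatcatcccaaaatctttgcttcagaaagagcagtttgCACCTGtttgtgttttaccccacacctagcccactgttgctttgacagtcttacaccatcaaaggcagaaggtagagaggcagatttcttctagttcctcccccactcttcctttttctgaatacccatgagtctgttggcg
Cd3g: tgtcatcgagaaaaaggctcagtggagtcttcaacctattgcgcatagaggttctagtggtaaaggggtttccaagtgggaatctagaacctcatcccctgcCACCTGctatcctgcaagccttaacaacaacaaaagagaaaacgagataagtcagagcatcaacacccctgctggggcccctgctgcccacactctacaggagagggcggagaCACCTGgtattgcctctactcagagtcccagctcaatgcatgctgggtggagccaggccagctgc
Cd3e: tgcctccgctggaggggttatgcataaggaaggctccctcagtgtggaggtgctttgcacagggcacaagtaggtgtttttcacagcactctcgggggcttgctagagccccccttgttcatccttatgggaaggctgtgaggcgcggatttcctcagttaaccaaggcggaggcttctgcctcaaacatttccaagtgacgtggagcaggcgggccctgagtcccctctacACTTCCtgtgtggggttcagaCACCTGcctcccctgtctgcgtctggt
Cd8a: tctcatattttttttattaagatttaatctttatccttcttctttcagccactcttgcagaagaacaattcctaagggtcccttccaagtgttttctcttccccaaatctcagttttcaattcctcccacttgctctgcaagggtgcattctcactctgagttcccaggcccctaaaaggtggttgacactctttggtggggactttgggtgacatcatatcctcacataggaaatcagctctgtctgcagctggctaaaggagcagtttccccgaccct
The motif CACCTG, on either strand, was found in 5 of the 6 windows, those of Cd3d, Cd3e, Cd3g, Cd247 and Cd5, and in 19.1% of all 32851 start windows of the same length. GGAAGT, on either strand, was found in 4 of the 6, those of Cd3d, Cd3e, Cd247 and Cd5, and in 22.3% of all windows. No match of one motif overlapped a match of the other in these 6 windows. The motifs were chosen after the sequences had been read, and a match is not evidence of binding. Cd3d and Cd3e each held 1 match of each motif and had the largest and the smallest change of the 10 genes.

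All 10 genes were higher in PFOS spleens, by 0.14 to 0.68 on the log2 scale with a median of 0.40, against a median of 0.05 over all tested genes. Limma called all 10 higher, where 40.6% of all genes were called higher and 66.6% in either direction. The lowest PFOS array lay above the highest control array for each of the 10, as for 43.2% of all tested genes. Groups did not overlap in either direction for 71.1%. All 10 passed the filter on low values in both groups. The size of the rise ranged from 1.10-fold for Cd3e to 1.60-fold for Cd3d.

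**Figure D1:**
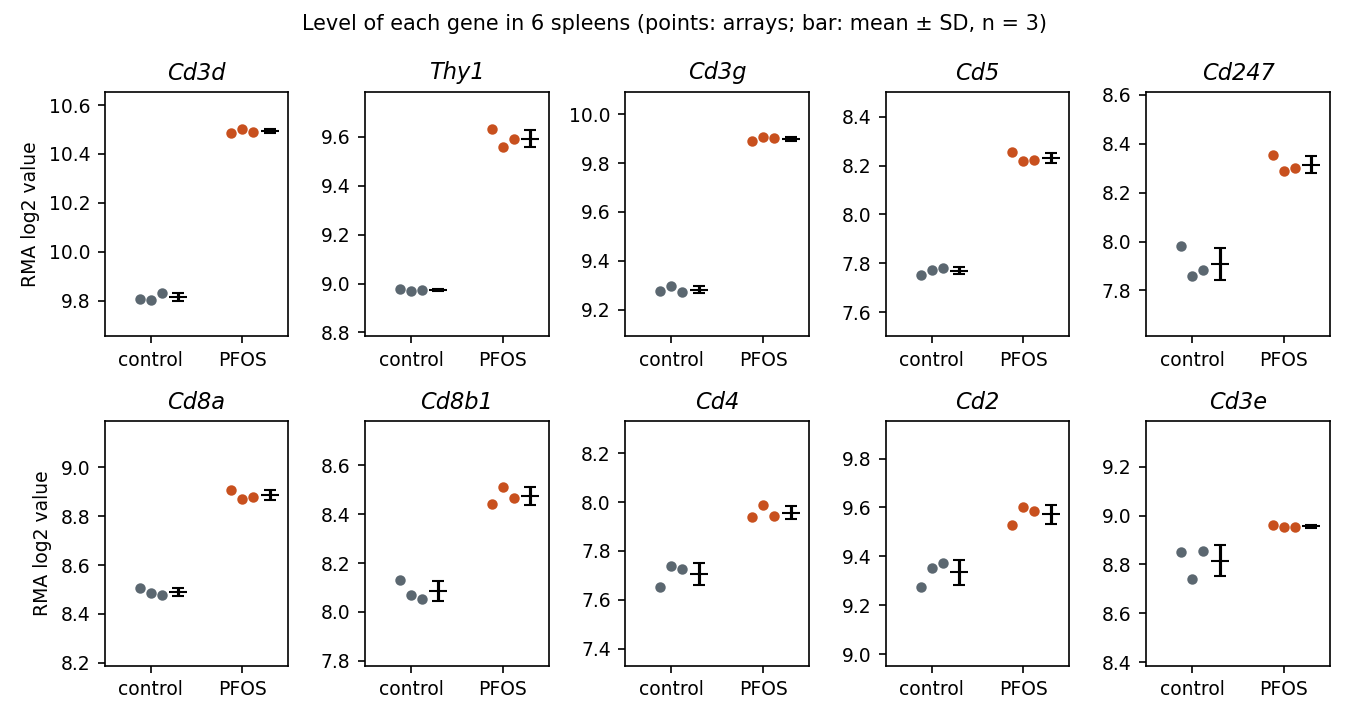
RMA log2 level (vertical axes, each spanning 1 log2 unit) of the 10 genes in 3 control and 3 PFOS spleens, ordered by the size of the change. Points are arrays, and bars give the mean ± SD (n = 3). The groups separate in every panel, from a gap of 0.68 between the means for Cd3d to 0.14 for Cd3e.

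Among the CD3 chains, delta and gamma rose together and epsilon far less. Cd3d, the delta chain, stood at 9.81, 9.80 and 9.83 in the control arrays and at 10.49, 10.50 and 10.49 in PFOS. The groups were far apart and the spread within each was small. The change was 0.68 ± 0.02, or 1.60-fold (limma adjusted p = 2.83e-07). Cd3g, the gamma chain, stood at 9.28, 9.30 and 9.27 in control and at 9.89, 9.90 and 9.90 in PFOS, a change of 0.62 ± 0.02 or 1.53-fold (limma adjusted p = 4.5e-07). Cd3e, the epsilon chain, which pairs with both of the others, stood at 8.85, 8.74 and 8.86 in control and at 8.96, 8.95 and 8.95 in PFOS. The PFOS arrays were nearly identical, while control replicate 2 lay below the other control arrays. The change of Cd3e was 0.14 ± 0.03, or 1.10-fold (limma adjusted p = 0.00898), and placed it at percentile 67.3 of the changes of all genes, against 99.6 for Cd3d and 99.3 for Cd3g. Scaled on ribosomal protein genes, Cd3e was no longer called (0.07, limma adjusted p = 0.114). Each CD3 gene has a single probe set on the array, so no other probe set bears on the Cd3e value.

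The gap between the chains was tested by subtracting the Cd3e value of each array from every gene and fitting limma again. Cd3d changed by 0.54 more than Cd3e (limma adjusted p = 4.29e-07) and Cd3g by 0.48 more (limma adjusted p = 3.72e-06). With the errors of both genes combined instead, the 95% intervals of these differences were 0.44 to 0.64 and 0.38 to 0.57. Cd3d exceeded Cd3g by 0.06 (limma adjusted p = 0.048), but the combined errors gave an unadjusted p of 0.0842 for that pair.

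Cd247, the zeta chain, was also higher, by an amount that depended on the probe set. Its brightest probe set, 1426396_at, read 7.98, 7.86 and 7.88 in control and 8.35, 8.29 and 8.30 in PFOS, a change of 0.41 ± 0.04 or 1.32-fold (limma adjusted p = 6.42e-05). The other 3 probe sets were dimmer and changed less. In a fit over all 45037 probe sets without a filter, 1420716_at changed by 0.16 (limma adjusted p = 0.00831), 1426079_at by 0.12 (0.0516) and 1452539_a_at by 0.00050 (0.994). The last pair had means below the filter floor of log2 5.62. Each of the 3 differed from the brightest probe set, by -0.41 to -0.24 (limma adjusted p from 2.19e-05 to 0.00276), as did 88.8% of all probe sets.

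The coreceptors were higher too, with Cd8a and Cd8b1 above Cd4. Cd4 stood at 7.65, 7.74 and 7.73 in control and at 7.94, 7.99 and 7.94 in PFOS, a change of 0.25 ± 0.03 or 1.19-fold (limma adjusted p = 0.000279). Cd8a stood at 8.51, 8.49 and 8.48 in control and at 8.91, 8.87 and 8.88 in PFOS, a change of 0.40 ± 0.02 or 1.32-fold (limma adjusted p = 6.64e-06). Cd8b1 stood at 8.13, 8.07 and 8.05 in control and at 8.44, 8.51 and 8.47 in PFOS, a change of 0.39 ± 0.03 or 1.31-fold (limma adjusted p = 3e-05). The groups did not overlap for any of the 3 coreceptor chains.

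CD4 and CD8 chains were then compared within arrays. With the control mean set to 0, Cd8a minus Cd4 was 0.07, -0.04 and -0.03 in control and 0.19, 0.10 and 0.15 in PFOS. The groups did not overlap, although control replicate 1 came close to the lowest PFOS array. Cd4 changed by 0.15 less than Cd8a (SE 0.04, limma adjusted p = 0.00777), in a fit where 91.9% of all genes differed from Cd8a. With Cd4 as the reference in place of Cd8a, the limma adjusted p of this difference was larger, 0.0135. The combined errors of both genes gave a 95% interval of 0.05 to 0.24 for Cd8a minus Cd4. Cd8b1 minus Cd4 was 0.10, -0.05 and -0.05 in control and 0.13, 0.15 and 0.14 in PFOS. Cd4 changed by 0.14 less than Cd8b1 (SE 0.05, limma adjusted p = 0.0123), where 89.5% of all genes differed from Cd8b1. That call was lost without control replicate 2 (-0.11, adjusted p = 0.089) or without control replicate 3 (-0.11, adjusted p = 0.0816). The exact two-sided permutation test over arrays gave p = 0.1 for both differences, the smallest possible with 3 arrays against 3. For the CD8 chains themselves, Cd8a minus Cd8b1 was -0.03, 0.01 and 0.02 in control and 0.06, -0.05 and 0.01 in PFOS, and the groups overlapped. The changes of Cd8a and Cd8b1 differed by 0.0065 (limma adjusted p = 0.908), with a 95% interval of -0.09 to 0.10 from the combined errors, which does not show that they moved alike. With the mean over the probe sets of a gene, Cd8a changed by 0.12 less than Cd8b1 (limma adjusted p = 0.0321).

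**Figure D2:**
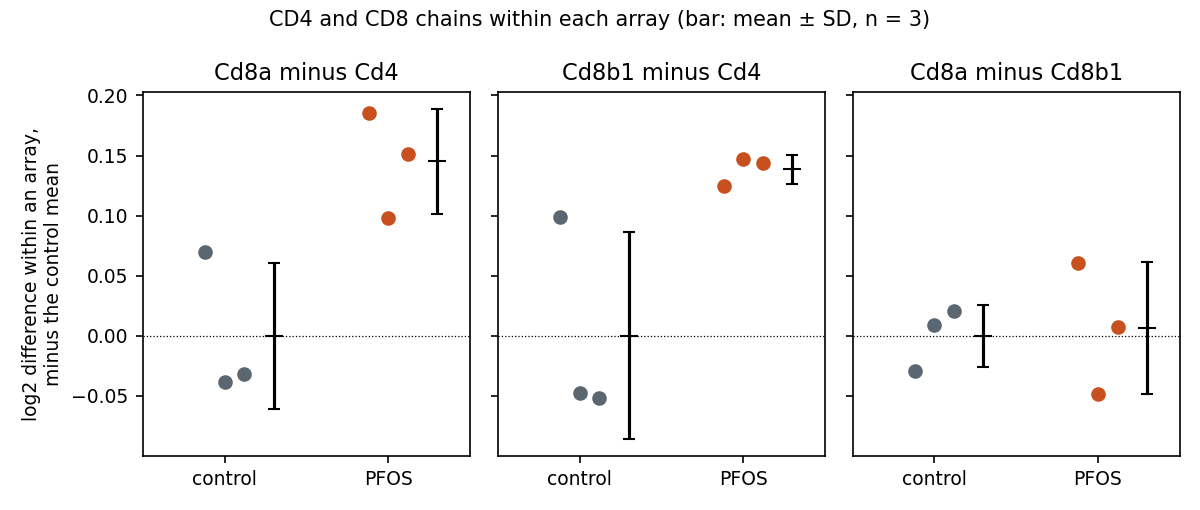
Log2 difference between chains within each array, with the control mean set to 0 (vertical axis), for Cd8a minus Cd4, Cd8b1 minus Cd4 and Cd8a minus Cd8b1. Points are arrays and bars give the mean ± SD (n = 3). The PFOS arrays sit at 0.10 to 0.19 in the first panel and at 0.13 to 0.15 in the second, above all control arrays, and the groups overlap in the third.

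The contrast of Cd4 with Cd8a depended on the Cd8a probe set. The gene has 5 probe sets, and the brightest, 1425335_at, stood for it. Probe set 1444078_at read 8.00, 8.08 and 8.05 in control and 8.51, 8.50 and 8.48 in PFOS, a change of 0.45 (limma adjusted p = 3.54e-05 over all probe sets), and 1440811_x_at changed by 0.33 (0.00021). Probe set 1451673_at, which cites the same transcript accession as the brightest, changed by 0.17 (0.0123). Probe set 1440164_x_at read 7.23, 7.13 and 7.11 in control and 7.22, 7.15 and 7.17 in PFOS, where the groups overlapped and the change of 0.02 was not called (0.671). The last pair differed from the brightest probe set by -0.23 (limma adjusted p = 0.00228) and -0.37 (4.24e-05), while 1444078_at and 1440811_x_at were not called different from it, in a fit where 90.6% of probe sets were. With 1440164_x_at standing for Cd8a, Cd4 changed by 0.23 more than Cd8a (limma adjusted p = 0.00512), and with 1451673_at by 0.08 more (0.258). With 1444078_at it changed by 0.20 less (0.000206). The suffix x_at marks probe sets that the maker expects to bind other transcripts too.

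The dimmer Cd4 probe set, 1427779_a_at, read 5.58, 5.70 and 5.74 in control and 5.86, 5.79 and 5.82 in PFOS, near the filter floor. Its change of 0.15 (limma adjusted p = 0.0322 over all probe sets) was not called different from that of the brighter Cd4 probe set (-0.10, adjusted p = 0.0929, where 70.6% of probe sets were). Standing for Cd4, it changed by 0.25 less than Cd8a and by 0.24 less than Cd8b1. Cd8b1 has a single probe set. Of the 18 probe sets of the 10 genes, 15 were called higher, 0 lower and 3 were not called, where 30.2% of all unfiltered probe sets were called higher and 49.5% in either direction. Groups did not overlap for 16 of the 18, against 58.3% of all probe sets.

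**Figure D3:**
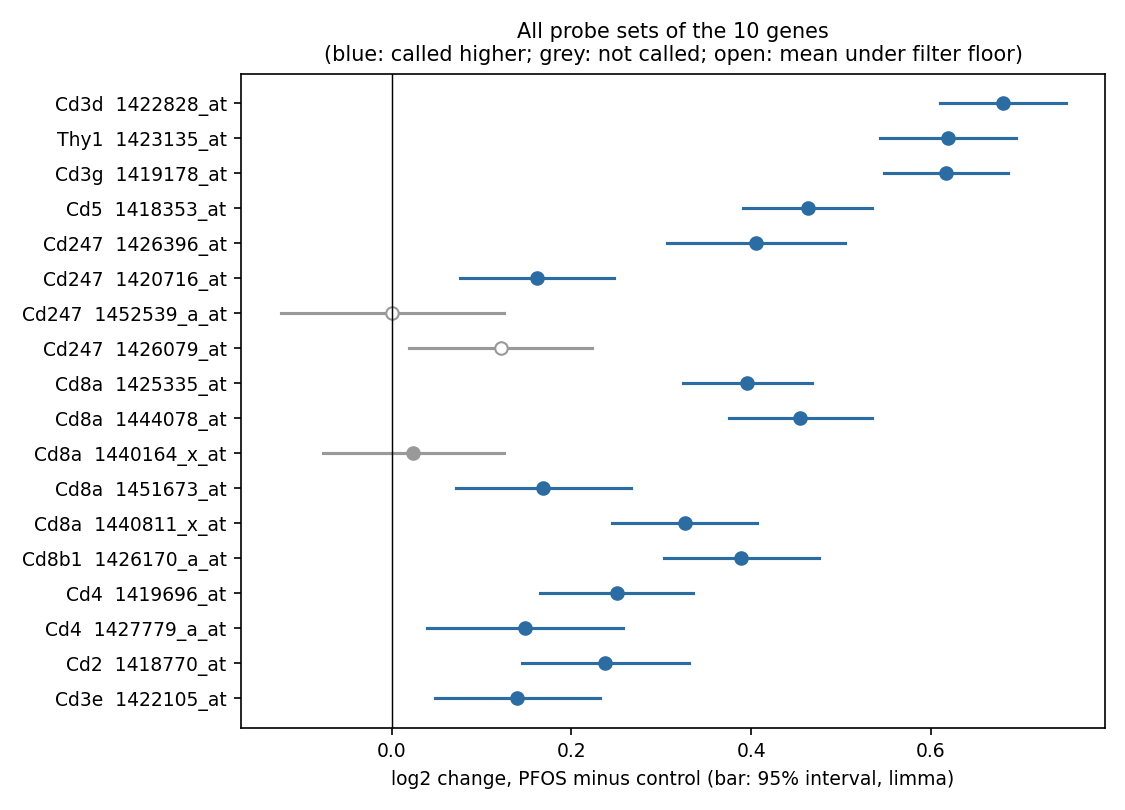
Log2 change, PFOS minus control (horizontal axis), of all 18 probe sets with limma 95% intervals, from the fit over all unfiltered probe sets. Blue marks probe sets called higher, grey those not called, and open points those with a mean under the filter floor of 5.62. The 5 probe sets of Cd8a run from 0.02 to 0.45 and the 4 of Cd247 from 0.00050 to 0.41.

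The surface proteins rose by unequal amounts. Thy1, the glycoprotein CD90 of the T cell surface, which some stromal cells also carry, stood at 8.98, 8.97 and 8.97 in control and at 9.63, 9.56 and 9.59 in PFOS. Its control arrays were almost identical, and the change was 0.62 ± 0.03 or 1.54-fold (limma adjusted p = 1.06e-06). Cd5, a scavenger receptor family protein that damps receptor signalling, stood at 7.75, 7.77 and 7.78 in control and at 8.26, 8.22 and 8.22 in PFOS, a change of 0.46 ± 0.02 or 1.38-fold (limma adjusted p = 2.88e-06). Cd2, an adhesion receptor for CD48 in mice, stood at 9.27, 9.35 and 9.37 in control and at 9.53, 9.60 and 9.58 in PFOS, a change of 0.24 ± 0.04 or 1.18-fold (limma adjusted p = 0.00069). Control replicate 1 was the lowest Cd2 array and PFOS replicate 1 the lowest of its group. Each of these 3 genes has a single probe set.

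Ordered by change, the genes ran Cd3d, Thy1, Cd3g, Cd5, Cd247, Cd8a, Cd8b1, Cd4, Cd2 and Cd3e. All 45 pairs were tested with each gene in turn as the reference, taking the larger adjusted p of a pair, and 34 pairs differed, where 86.0% of all genes differed from a reference. Combined errors gave an unadjusted p under 0.05 for 34 pairs as well, of which 33 were the same pairs. The exceptions were Cd3d against Cd3g, given above, and Cd4 against Cd3e. The difference of the latter, 0.11, passed by combined errors alone (limma errors, unadjusted p = 0.0489) and not by the fit (limma adjusted p = 0.0928). Of the 9 steps between neighbours, the fit called Cd3g against Cd5 (0.15, limma adjusted p = 0.000939) and Cd8b1 against Cd4 (0.14, limma adjusted p = 0.0209). The other 7 were not called, with differences from 0.0025 for Thy1 against Cd3g to 0.10 for Cd2 against Cd3e. Within each of the sets Cd5, Cd247, Cd8a and Cd8b1, and Cd4, Cd2 and Cd3e, no pair was called different.

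**Figure D4:**
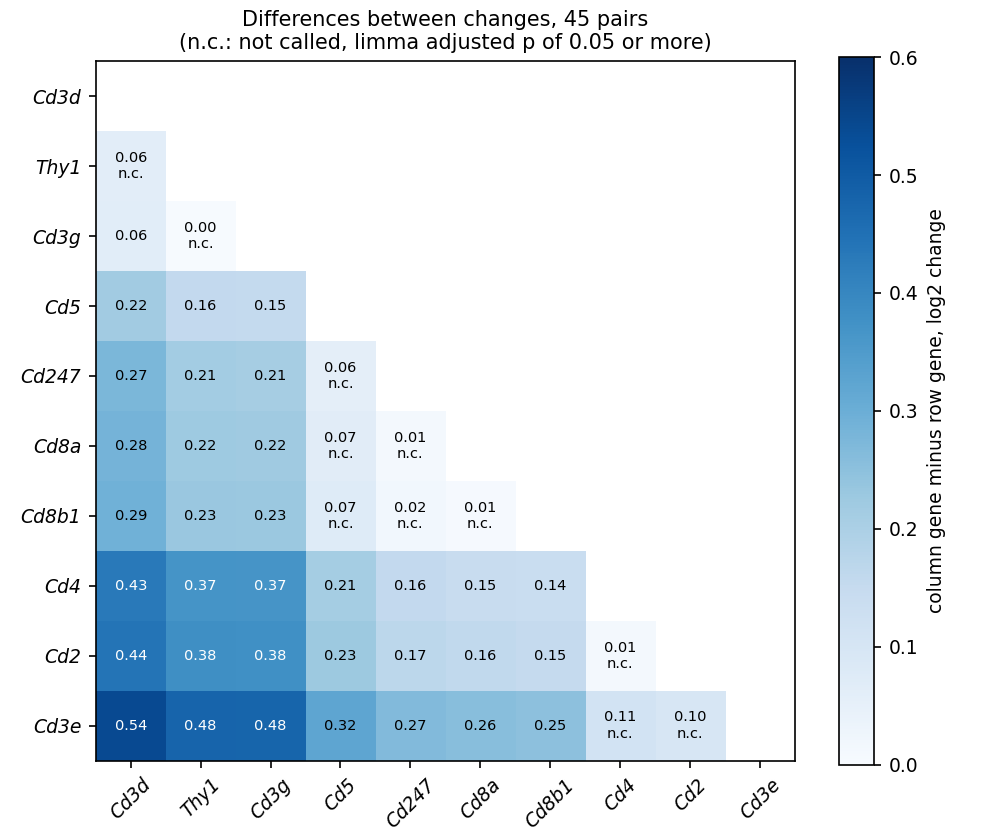
Difference between the log2 changes of each pair of genes, column gene minus row gene (colour and printed value), with genes ordered by their change. Pairs marked n.c. had a limma adjusted p of 0.05 or more. The largest value, 0.54, is Cd3d against Cd3e, and 11 of the 45 pairs were not called.

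Set against the mean of Cd3d, Cd3e and Cd3g, which changed by 0.48, 5 of the other 7 genes differed, as did 95.5% of all genes. That mean joins changes of 0.68, 0.14 and 0.62, so no single chain changed by its amount. Against Cd3e alone, Cd8a changed by 0.26 more (limma adjusted p = 0.000186) and Cd8b1 by 0.25 more (6.04e-05). Against the mean of Cd3d, Cd3e and Cd3g, Thy1 changed by 0.14 more (limma adjusted p = 0.00199). Cd2 changed by 0.24 less than that mean (limma adjusted p = 0.000219) and Cd4 by 0.23 less (0.000232). Against the same mean, Cd8a (-0.08, limma adjusted p = 0.0214) and Cd8b1 (-0.09, 0.0297) were called as well, but lost the call without several single arrays. For Cd8a these were control replicates 1 and 2 (adjusted p = 0.0573 and 0.0546) and PFOS replicates 2 and 3 (0.081 and 0.0642). For Cd8b1 these were control replicates 1 and 2 (0.0991 and 0.0709) and PFOS replicates 1 and 3 (0.0856 and 0.076). The differences of Cd247 (-0.07, limma adjusted p = 0.0921) and Cd5 (-0.02, 0.604) were not called. With the mean over all probe sets of a gene in place of the brightest, Cd247 was called (-0.20, limma adjusted p = 7.28e-05) and Cd8a stood at -0.21 (0.000109). The 5 genes outside the 10 whose profile over the 6 arrays lay closest to the CD3 mean, by Euclidean distance after centring each gene, were Ppm1h, Mast4, Marveld1, B4galnt1 and Arrb2. Their distances were 0.03 and their changes lay between 0.48 and 0.49. By the same distance Cd3g, Cd3d and Cd3e themselves ranked 743, 1381 and 4078, so nearness to the mean is not nearness to a chain.

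The antigen-binding chains themselves were measured by probe sets that the annotation names after a variable segment or, for 1 of them, after the alpha chain locus (Tcra), chosen here after their values were seen. Of 18 such probe sets, 8 were called higher and 0 lower in the unfiltered fit, against 30.2% of all probe sets called higher. The brightest Trav9d-3 probe set, an alpha chain segment, read 10.93, 10.94 and 10.96 in control and 11.49, 11.53 and 11.54 in PFOS, a change of 0.58 (limma adjusted p = 6.35e-06). The brighter Trbv1 probe set, a beta chain segment, read 10.33, 10.26 and 10.25 in control and 11.08, 10.99 and 11.01 in PFOS, a change of 0.75 (limma adjusted p = 5.79e-06). Segments share sequence and both probe sets have the suffix x_at, so the reading may sum over several chains. Of the 5 gamma chain probe sets, 1 was called higher, a Trgv4 probe set just above the filter floor on average (0.16, limma adjusted p = 0.0163), and 4 were not called. The brightest of the 5, shared by Trgv4 and Trgv2, changed by 0.12 (limma adjusted p = 0.061) and Trgv1 by -0.01 (0.818).

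Genes that carry the receptor signal were mostly higher. Of 26 tested genes of proximal signalling, 23 were called higher and 1 lower, with a median change of 0.36, against 40.6% called higher and a median of 0.05 over all genes. Lat, the membrane scaffold that the receptor's kinases phosphorylate, went from 9.09 to 9.67 (0.58 ± 0.03), the kinase Fyn changed by 0.55 ± 0.03, the adaptor Fyb by 0.56 ± 0.03 and the transcription factor Nfatc1 by 0.56 ± 0.03. Grap2, the adaptor that links Lat to Lcp2, was the gene called lower (-0.12 ± 0.03, limma adjusted p = 0.0146). Zap70, the kinase that docks on phosphorylated CD3 and zeta chains, stood at 8.54 in control and 8.49 in PFOS (-0.06 ± 0.04, limma adjusted p = 0.272), and Nck2, an adaptor that can bind the epsilon tail, changed by 0.0049 ± 0.04 (0.928). Zap70 and Nck2 were the uncalled genes and are named for that reason. The list of receptor chain parts had 2 tested entries, both higher. Trat1, an adaptor that associates with the receptor, rose by 0.77 ± 0.04 (limma adjusted p = 2.24e-06) and the beta chain segment Trbv13-2 by 0.30 ± 0.08 (0.0121), and 1 of the 2 was called at an adjusted p under 0.01. Trbv13-2 lay near the filter floor of 5.62, with means of 5.70 in control and 6.00 in PFOS.

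Negative regulators of the same pathway were higher in 24 of 25 cases with a median of 0.24, where 40.6% of all genes were called higher with a median of 0.05. Sit1, a membrane adaptor, rose by 0.67 ± 0.04, the diacylglycerol kinase Dgka by 0.52 ± 0.03, the adaptor Dok2 by 0.52 ± 0.04 and the inhibitory receptor Btla, also carried by B cells, by 0.43 ± 0.02. The adaptor Sla2 was not called (0.03, limma adjusted p = 0.338). Ligands and partners of the 10 genes were higher in 12 of 13 cases (median 0.34), against the same 40.6% of all genes. Cd48, the ligand of Cd2, rose by 0.50 ± 0.02, Il16, which encodes a ligand of CD4, by 0.48 ± 0.02, H2-Eb1, an MHC class II chain, by 0.47 ± 0.02 and H2-D1, an MHC class I heavy chain, by 0.41 ± 0.02. Cd2bp2, which binds the tail of Cd2, was not called (-0.06, limma adjusted p = 0.0646). Without probe sets ending in _s_at, _x_at or _a_at, the list held fewer genes and 7 were called higher.

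Genes tied to the CD4 and CD8 lineages were mostly higher, and whether the lists differ was not tested. Over all genes, 40.6% were called higher and the median was 0.05. Of 12 tested CD4 lineage genes, limma called 10 higher and 0 lower (median 0.24). Icos, a costimulator, rose by 0.41 ± 0.02, the factor Tox by 0.53 ± 0.04, the Helios gene Ikzf2 by 0.32 ± 0.02 and the follicular homing receptor Cxcr5, which B cells share, by 0.29 ± 0.02. Cd40lg (0.06, limma adjusted p = 0.668) and Il2ra (-0.02, 0.764) were not called. Of 15 tested CD8 lineage and cytotoxic genes, limma called 11 higher and 0 lower (median 0.14). Gzmk, a granzyme, rose by 0.42 ± 0.05, Crtam by 0.41 ± 0.05, and the transcription factors Tbx21 and Eomes by 0.38 ± 0.03 and 0.30 ± 0.03. Eomes is counted again in the natural killer cell list below, and Itgae again in that of a dendritic cell type. Icos is counted in the proximal signalling list as well, and Ctla4, a CD4 lineage entry, among the negative regulators. Runx3, a factor of the CD8 lineage, changed by -0.05 (limma adjusted p = 0.21), Prf1, which encodes perforin, by -0.01 (0.779), Gzmm by -0.05 (0.526) and Klrk1 by 0.06 (0.158), none of them called. Scaled on ribosomal protein genes, 7 of the CD8 lineage and cytotoxic genes were called higher.

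Genes of T cell identity and of naive T cells were higher in 14 of 15 cases, with a median of 0.30, against 40.6% and 0.05 over all genes. Bcl11b, a factor that maintains T cell identity, rose by 0.72 ± 0.02, the interleukin 7 receptor gene Il7r by 0.68 ± 0.02, Lef1 by 0.56 ± 0.03 and Igfbp4 by 0.37 ± 0.02. Runx1 was called lower (-0.13 ± 0.04, limma adjusted p = 0.0179). With Bcl11b, Lat and the 10 genes all well above the filter floor in both groups, the arrays carried the markers of T cells. Zap70, a further T cell marker, also lay above the floor (8.54 in control, 8.49 in PFOS) but was not called. No value is given here for Lck and Tcf7, which were planned as T cell markers too.

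**Figure D5:**
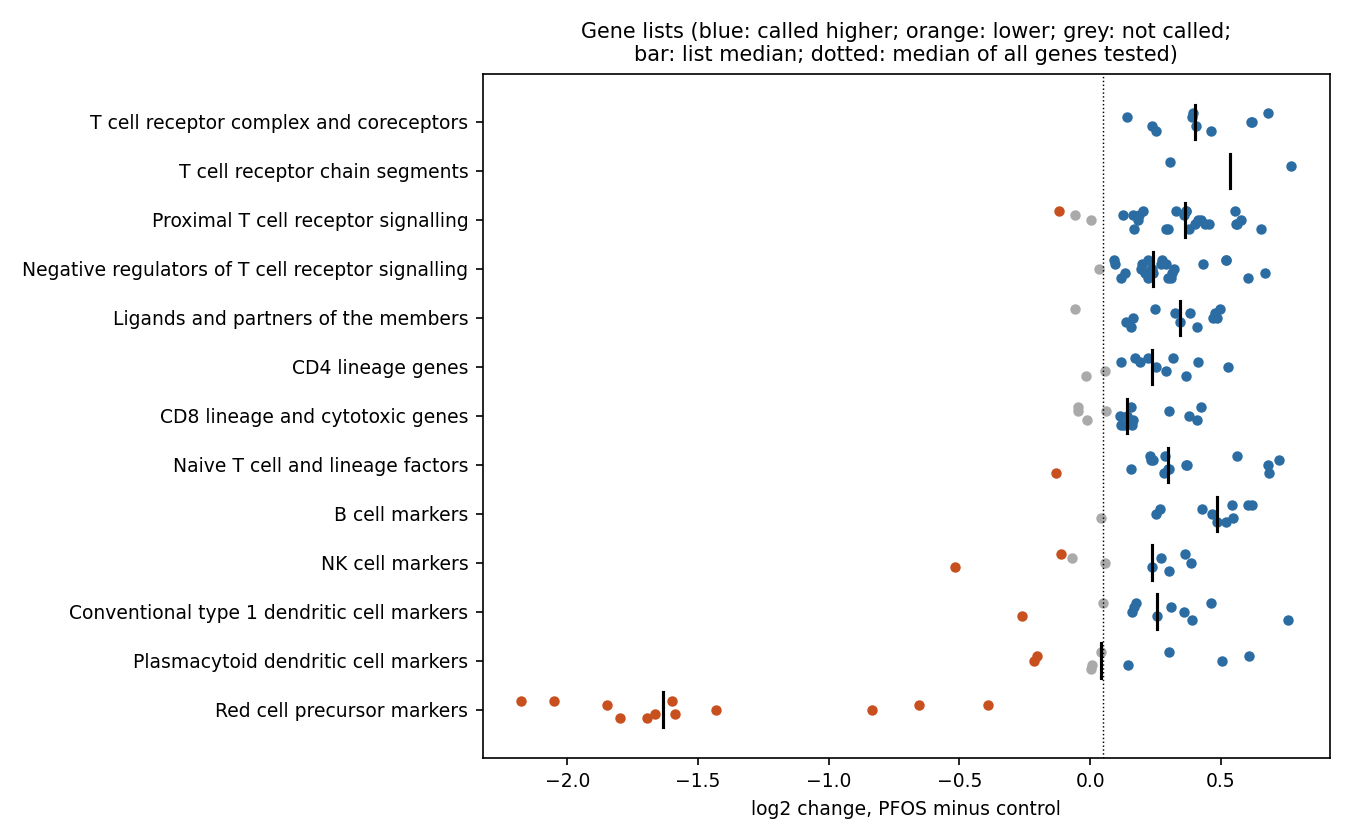
Log2 change, PFOS minus control (horizontal axis), of the tested genes in each list. Points are genes, blue called higher, orange called lower and grey not called, black bars are list medians, and the dotted line is the median of all 13101 tested genes (0.05). The 10 genes have a median of 0.40, B cell markers 0.48 and red cell precursor markers -1.63.

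Several of the 10 genes are carried by other cells of the spleen, and markers of those cells are given from the same arrays. Over all genes, 40.6% were called higher and 26.0% lower, with a median of 0.05. B cell markers, a type that lacks the receptor but can carry Cd2 and, in a subset, Cd5, were higher in 10 of 11 cases with a median of 0.48. Cd79a, a signalling chain of the B cell antigen receptor, rose by 0.62 ± 0.02 and Fcer2a by 0.52 ± 0.02, and the summed linear level of the list was 16679 to 16845 in control and 22758 to 23098 in PFOS. The same sum over the 10 T cell genes was 4398 to 4450 in control and 6115 to 6133 in PFOS. Natural killer (NK) cells can carry Cd247, Cd2 and Thy1. Of 9 tested NK cell markers, 5 were higher and 2 lower (median 0.24). Their summed level was 4109 to 4136 in control and 4547 to 4620 in PFOS. Tyrobp changed by 0.36 ± 0.02 and, as the brightest of the 9 (11.03 in control, 11.39 in PFOS), weighs most in that sum. The genes called lower were the granzyme Gzma (-0.52 ± 0.04) and Ncr1 (-0.11 ± 0.04, limma adjusted p = 0.04). Klre1 (-0.07, limma adjusted p = 0.371) and Klrg1 (0.06, 0.356) were not called. A conventional dendritic cell type carries Cd8a. Of its 11 tested markers 9 were higher and 1 lower (median 0.25, summed level 7607 to 7726 and 9164 to 9247). Wdfy4 changed by 0.46 ± 0.03 and Irf8 by 0.36 ± 0.02. Both were the brightest of the list (11.15 and 10.93 in control) and weigh most in the sum. Cd36 was the gene called lower (-0.26 ± 0.05, limma adjusted p = 0.00272), and Zbtb46 was not called (0.05, 0.281). Plasmacytoid dendritic cells can carry Cd4. Of their 9 tested markers 4 were higher and 2 lower, near the shares over all genes (median 0.04, summed level 4955 to 5133 and 5541 to 5623). Pacsin1 changed by 0.61 ± 0.03 and Tcf4 by 0.50 ± 0.03, while the defining gene Siglech changed by 0.04 (limma adjusted p = 0.296). The genes called lower were Bst2 (-0.20, limma adjusted p = 0.000784) and Cox6a2 (-0.22, 0.00648). Spib, the brightest of the list, was not called (0.0087, limma adjusted p = 0.802). Tcf4 came next in level (9.84 in control, 10.35 in PFOS). The summed levels of these lists may include RNA of other cells, and how much was not tested. The part of the listed cell types in the values of the 10 genes was not tested either.

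Red cell precursor markers fell in the same arrays. All 12 tested markers were called lower, with a median of -1.63, against 26.0% of all genes. Klf1, which encodes an erythroid transcription factor, changed by -2.05 ± 0.02 and the blood group gene Kel by -2.18 ± 0.02. The summed linear level of the list was 46876 to 47436 in control and 20331 to 20482 in PFOS. Its part in the rise of the 10 genes was not tested. The mean of the 27 probe sets of labelling spikes, bacterial transcripts added to the RNA, was 0.48 lower in PFOS arrays (exact permutation p = 0.1, the smallest possible). Scaling on these spikes moved the median of all genes to 0.53, and the changes of the 10 genes to between 0.62 for Cd3e and 1.16 for Cd3d, while differences between genes of an array stayed as they were.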

How the data were processed

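Total RNA (6 ug per sample) of 3 control and 3 PFOS spleens was hybridized to 1 Affymetrix Mouse430_2 array each, per the labels' protocols. The deposited values are log2 levels that, per the submitters' processing notes, come from RMA, a method that subtracts background, equalizes arrays and combines the probes of a set. The sources used here name no version, genome build or test of the authors. The number of arrays limits the precision.

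For gene tests, the 64 control probe sets, probe sets without a single symbol and those whose mean over 6 arrays was under the 40th percentile (log2 5.62) were left out, and the brightest probe set stood for its gene, giving 13101 genes. Limma 3.58.1 (lmFit, eBayes) in R 4.3.3 gave two-sided p-values, adjusted over all genes by the Benjamini-Hochberg method. A second fit used all 45037 other probe sets without a filter. To compare the changes of 2 genes, the reference gene was subtracted within each array before limma was run on all genes. That fit takes the spread of the reference, known from few arrays, into every gene, so its p-values may be too small, and an alternative that combines the errors of both genes was added after seeing the data. Alternatives covered the replicate block, filter, scaling, variance prior, array weights, probe sets, threshold and leaving out each array. The fit was checked on simulated data. Named genes were the 10 genes, up to 4 with the smallest p and any called lower in each pathway list, and the 2 with the smallest p in each list of another cell type. Some genes that were not called, or that were called lower in the lists of other cell types, are named in addition. So are some genes counted in another list too. The 10 genes and the lists were chosen with earlier results of these data known. By identifier, all 10 genes were found in the RefSeq table (GRCm38.p6). Listed genes not mentioned by name entered the counts, medians and summed levels of their lists where tested, but are not described singly.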

Additional observations from a re-analysis of the deposited data

How the results depend on the processing

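All 10 genes kept their direction under the 18 alternatives tried, 17 for Cd8b1, whose only probe set ends in _a_at, so that its contrasts had no value without such probe sets. The call of each was kept except that of Cd3e with scaling on ribosomal protein genes. Of all calls, 61.0% were higher, 43.2% with scaling on ribosomal protein genes and 93.8% on the labelling spikes, which moved the median change of all genes from 0.05 to 0.53. Cd4 minus Cd8a (-0.15) was -0.0746 with the mean over probe sets (limma adjusted p = 0.0844), -0.0757 with Cd8a probe set 1440811_x_at (0.133), and turned to 0.23 with 1440164_x_at and 0.0817 with 1451673_at. Leaving out single arrays gave -0.18 to -0.12. Cd4 minus Cd8b1 was -0.14 and missed an adjusted p of 0.01, and leaving out single arrays gave -0.19 to -0.11. Cd4 minus Cd8a met 0.01 with Cd8a as the reference but not with Cd4 as the reference (limma adjusted p = 0.0135). Cd8a minus Cd8b1, which was not called with the brightest probe sets (0.0065), had the opposite sign with array weights (-0.0017), the mean over probe sets (-0.12, limma adjusted p = 0.0321) and Cd8a probe sets 1440164_x_at (-0.37, 1.45e-09), 1440811_x_at (-0.0629, 0.255) and 1451673_at (-0.22, 9.52e-05), of which 3 were called, and ran from -0.0206 to 0.0340 without single arrays. The cause of these shifts was not tested. Of the 7 genes set against the CD3 mean, 3 differed instead of 5 at an adjusted p under 0.01, 3 to 5 without single arrays, 4 without probe sets ending in _s_at, _x_at or _a_at, and 6 with the mean over probe sets, where Cd247 was called. Pairs that differed numbered 28 to 33 without single arrays, against 34.

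The labels do not say that the replicate numbers pair mice, so the main fit had no block. The deviations of same-numbered arrays from their group means correlated at 0.32, 0.14 and 0.10. All of these were positive, and for 2 of the 3 numbers both arrays correlated best with each other. Whether same-numbered arrays share an effect was not tested. With the replicate block, limma called 9050 genes instead of 8730, all 10 genes stayed higher, 33 pairs differed, Cd4 minus Cd8a had an adjusted p of 0.00246, and Cd247 was called against the CD3 mean as well (-0.07, adjusted p = 0.0418). Dim probe sets limit what the array shows: 2 of the 18 lay under the filter floor.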

Other observations

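Markers of cell types that do not define the T cell genes moved in several directions. For comparison, 40.6% of all genes were called higher and 26.0% lower, with a median change of 0.05. Of 11 macrophage markers, limma called 9 higher and 0 lower (median 0.31), with the adhesion molecule Vcam1 at 0.68 ± 0.02 and Spic, the factor of red pulp macrophages, at 0.57 ± 0.03. Of 10 neutrophil markers, limma called 7 lower and 2 higher (median -0.41), with the granule proteins Camp at -0.96 ± 0.02 and Ngp at -0.84 ± 0.02. Stromal cell markers, of interest because stromal cells can carry Thy1, were higher in 4 and lower in 4 of 10 cases (median 0.04). The share higher and the median of that list were near those over all genes. The collagen gene Col3a1 changed by -1.01 ± 0.03 and the chemokine gene Cxcl13 by 0.53 ± 0.02. All 10 tested hepatocyte markers were lower (median -3.67), with Alb at -5.15 ± 0.04 and Apoa1 at -3.73 ± 0.04, and 7 of the 10 had PFOS means under the filter floor, so those passed the filter only through their control level. Of 4 thymocyte markers that passed the filter, 3 were higher and 1 lower, Themis by 0.65 ± 0.04 and Mns1 by -2.04 ± 0.08. Themis is a T cell gene as well and stands in the proximal signalling list too. Tcf12, also among the higher ones, is counted in the list of T cell identity and naive T cells too.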
